A study of Rattus norvegicus with 10 samples.

Results

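Protocadherins are membrane proteins of the cadherin superfamily, and 48 protocadherin genes were examined in the left hippocampus of female rats of an Alzheimer disease model, given the drug ibudilast or left untreated. The members were taken by symbol and count. The expression table lists 17168 genes, 49 of them with a symbol that starts with Pcdh, and 48 of the 49 had an estimated count of 10 or more in at least 5 of the 10 libraries. They comprised 15 genes of the alpha cluster, 11 of the beta cluster, 13 of the gamma cluster and 9 genes that stand alone in the genome.

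RNA was sequenced from 5 TgF344-AD females fed chow with ibudilast from 5 months of age for 6 months, and from 5 untreated TgF344-AD females on plain rodent chow. Rats of both groups carried the transgenes of this line, human disease genes under a mouse prion promoter, and were 11 months old at dissection. Animals without the transgenes and males were not analysed here, so the comparison is of treated with untreated transgenic females. Ibudilast blocks a range of phosphodiesterases, the enzymes that break down cyclic nucleotides.

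The clustered protocadherins lie side by side in 3 arrays, alpha, beta and gamma. Each alpha or gamma gene has its own first exon, which encodes the whole extracellular part, spliced to constant exons that all genes of that array share, while each beta gene is a single exon. In the mouse, a neuron switches on a small, largely random set of these promoters, chosen through the looping factor CTCF and cohesin, and the proteins bind copies of themselves on other membranes. That code lets branches of 1 neuron recognise and avoid each other, and gamma genes are also needed for the survival of interneurons. C-type genes at the array ends, such as Pcdhac2 and Pcdhgc3, are less random in their use. Non-clustered protocadherins are single genes with more regional expression, several of which act in axon growth and in synapse formation.

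Most clustered protocadherin promoters are known to share a short conserved element with the core letters CGCT, near the CTCF binding site. Promoters of the clustered members were therefore read from the RefSeq table of build GRCr8, which holds 250 bases before to 50 bases after each gene's start and had an entry for 31 of the 48 members, none of them an alpha gene, since the table has 1 record for that whole locus. The search strings were picked because they were the most shared among these promoters, so their frequency there is a description. On both strands, the string GGTGGCGCT was present in 11 of 11 beta members, 0 of 12 gamma members and 0 of 8 non-clustered members, and in 0.457% of all 33469 promoters of the table. It contains CGCT, which alone was in 60.9% of all promoters. The string CGCTGTT, which can overlap GGTGGCGCT by the core, was in 11 of 12 gamma members, 1 of 11 beta members and 0 of 8 non-clustered members, and in 1.98% of all promoters. The gamma member without it was Pcdhga1, and in Pcdhgc3 it lay on the minus strand. The records of Pcdhga1, Pcdhb6 and Pcdhb8 begin at the start codon, so their windows lie before that codon and may not reach the promoter.

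The stretches below show the shared string in capitals, on the plus strand of chromosome 18 in GRCr8, 60 bases each, read 5′ to 3′. They are shown because beta genes called higher and beta genes not called carried the same 9 letters, and most gamma genes of both kinds the same 7. Called higher with ibudilast were Pcdhb2 (chr18:29279908-29279967), Pcdhb12 (chr18:29413633-29413692) and Pcdhb9 (chr18:29379233-29379292). Not called were Pcdhb5 (chr18:29302389-29302448) and Pcdhb20 (chr18:29485795-29485854).
Pcdhb2: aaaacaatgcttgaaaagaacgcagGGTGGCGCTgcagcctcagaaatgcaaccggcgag
Pcdhb12: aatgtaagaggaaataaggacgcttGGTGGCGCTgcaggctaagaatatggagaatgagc
Pcdhb9: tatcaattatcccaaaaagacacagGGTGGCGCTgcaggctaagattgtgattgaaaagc
Pcdhb5: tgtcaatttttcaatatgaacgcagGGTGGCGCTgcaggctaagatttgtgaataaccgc
Pcdhb20: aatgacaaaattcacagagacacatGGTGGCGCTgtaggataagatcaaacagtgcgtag

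In the gamma array, the genes called lower with ibudilast are represented by Pcdhgb8 (chr18:29839486-29839545), Pcdhga5 (chr18:29770893-29770952) and Pcdhga8 (chr18:29804990-29805049), and those not called by Pcdhga10 (chr18:29825804-29825863).
Pcdhgb8: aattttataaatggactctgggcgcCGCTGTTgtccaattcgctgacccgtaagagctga
Pcdhga5: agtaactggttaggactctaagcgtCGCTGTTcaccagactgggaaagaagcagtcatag
Pcdhga8: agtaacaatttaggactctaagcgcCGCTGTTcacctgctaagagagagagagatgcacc
Pcdhga10: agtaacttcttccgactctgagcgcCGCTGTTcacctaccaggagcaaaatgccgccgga
The string began at position -71 from the gene start in Pcdhb2, -98 in Pcdhb12, -52 in Pcdhb9 and Pcdhb5, and -68 in Pcdhb20. In the gamma genes it began at -49 in Pcdhgb8, -22 in Pcdhga5, -98 in Pcdhga8 and -97 in Pcdhga10. Presence of either string did not separate called from uncalled members, since 5 of 5 called and 6 of 6 uncalled beta members held the first, and 5 of 6 called and 6 of 6 uncalled gamma members the second. Pcdhgb7, also called lower, had no entry in the table.

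Levels are given in CPM, which are counts divided by library size after TMM scaling. They are not corrected for gene length, so a level is compared between libraries and not between genes. Total estimated counts ran from 7553804 to 10121571 in ibudilast libraries and from 6960066 to 8204390 in untreated libraries. Of 11682 genes that passed the expression filter, 38.5% were called at a Benjamini-Hochberg adjusted p under 0.05 in edgeR's quasi-likelihood test, 20% higher with ibudilast and 18.5% lower. Of 16 hippocampal principal cell genes chosen as markers of the labelled tissue, 15 were in the data and 12 were tested. None of the 15 was at 0 in every library, but the same held for every marker list, so this does not identify the tissue. Libraries differed in markers of neighbouring tissue. The summed level of 10 neocortical markers was 317 to 868 CPM in ibudilast libraries and 169 to 234 CPM in untreated libraries, with 7 of 10 called higher. For hippocampal principal cell markers, 6 of 12 were called lower, with sums of 543 to 1284 CPM in ibudilast libraries and 887 to 1971 CPM in untreated libraries. Ibudilast 3 stood apart in cerebellar markers, with a sum of 4144 CPM, ibudilast 5 in meningeal markers, with 1163 CPM, and untreated 1 in choroid plexus markers, with 2607 CPM. Between the groups, 3 of 5 tested cerebellar and 4 of 9 meningeal markers were called higher, and 1 of 4 choroid plexus markers lower. Ibudilast 2 and 4 had the highest neocortical scores. In other lists 7 of 8 microglial, 5 of 8 endothelial and mural, 4 of 8 astrocytic and 4 of 8 oligodendrocyte precursor markers were called lower, 1 oligodendrocyte precursor marker and 2 of 8 general neuronal markers higher, and 0 of 8 oligodendrocyte markers in either direction. Of 11 thalamic and striatal markers 4 were called higher.

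Among the protocadherins, 10 of 48 were called higher with ibudilast and 8 lower. These shares, 20.8% and 16.7%, are near the background of 20% and 18.5%, so the family as a whole was not called more often than other genes, and the data differ by array. In the gamma array 7 of 13 members were called lower and 0 higher. In the alpha and beta arrays 7 of 26 were called higher and 0 lower, 2 of 15 alpha members and 5 of 11 beta members. Pcdhb2 and Pcdha1 met the count rule mainly through ibudilast libraries, and without them 2 of 14 alpha and 4 of 10 beta members were called higher. Among the non-clustered members 3 of 9 were called higher and 1 lower. Pcdh11x also met the count rule mainly through ibudilast libraries. Without it 2 of 8 were called higher and 1 lower, at a median log2 fold change of -0.19. Without Pcdhb2, Pcdha1 and Pcdh11x, 8 of 45 protocadherins were called higher and 8 lower. The median log2 fold change, ibudilast over untreated, was 0.36 over alpha, 0.25 over beta, -0.46 over gamma and -0.14 over non-clustered members, beside 0.01 over all tested genes. The 5 ibudilast and 5 untreated libraries did not overlap at 6 members that were higher, Pcdhb2 among them, and 4 that were lower. That is 10 of 48, where the groups did not overlap at 24.2% of all tested genes, 12.3% higher and 11.8% lower.

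**Figure D1:**
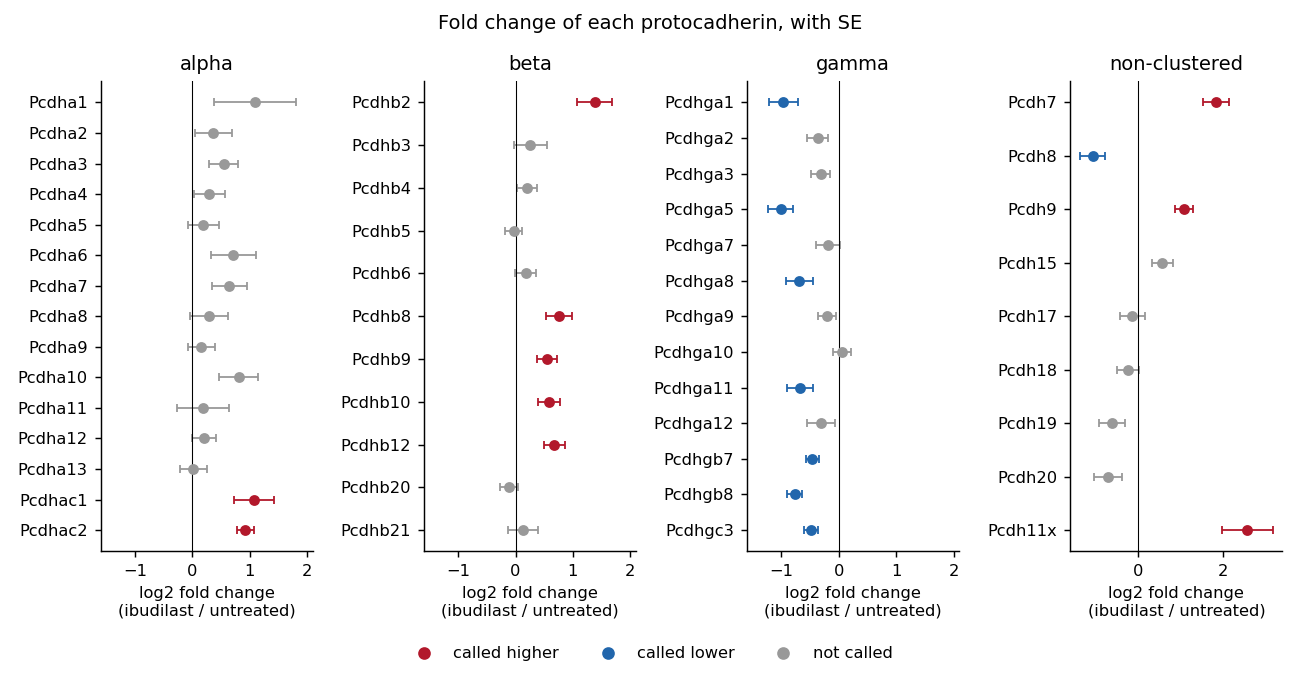
Log2 fold change (ibudilast over untreated) of each of the 48 protocadherins in the alpha, beta, gamma and non-clustered groups, with bars of 1 standard error and colours for the edgeR calls. Gamma members lie mostly left of 0, with 12 of 13 negative, alpha members lie right of it, and the non-clustered panel has a wider axis.

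Reads from the constant exons and from near-identical coding sequence can be assigned to several genes, and the counting programme splits them. Of the estimated counts, 98.7% were not whole numbers in alpha, 98.2% in beta and 98.5% in gamma members, against 0% in non-clustered members. Values of single clustered genes therefore carry that uncertainty and are not independent of each other. A sum over an array does not depend on how reads were split among its listed genes. Reads given to array genes without a listed count, such as Pcdhga4 and Pcdhgc5, would fall outside the sum. In bulk tissue, fewer cells of a type and less RNA per cell cannot be told apart. The p-values set the difference between groups against the spread between libraries of a group. Each of the 10 libraries has a number of its own in its title, taken here as that of an animal.

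The array sums carried the same contrast. The gamma sum was 963, 803, 749, 858 and 873 CPM in ibudilast libraries 1 to 5, against 1047, 1244, 1202, 1231 and 1140 CPM in untreated libraries 1 to 5. Every ibudilast library lay below every untreated one, and the means were 849 ± 80.3 CPM and 1173 ± 81.0 CPM (SD, n = 5 each). The alpha sum was 199, 234, 194, 306 and 230 CPM in ibudilast libraries 1 to 5, against 125, 130, 158, 181 and 186 CPM in untreated libraries. Here every ibudilast library lay above every untreated one, with ibudilast 4 the highest. The beta sum averaged 115 ± 15.3 CPM with ibudilast and 94.0 ± 12.9 CPM untreated, and the groups overlapped, with ibudilast 1 at 89.6 CPM. The sum over non-clustered members, 285 to 698 CPM with ibudilast and 406 to 609 CPM untreated, overlapped as well.

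The ratio of the gamma sum to the alpha sum within a library does not depend on the library's scaling. It was 4.84, 3.43, 3.85, 2.81 and 3.80 in ibudilast libraries 1 to 5, against 8.35, 9.57, 7.61, 6.80 and 6.14 in untreated libraries 1 to 5. The groups were separate, with means of 3.75 ± 0.741 and 7.69 ± 1.34. Gamma and alpha sums already separated in opposite directions, so the separation of their ratio follows from them and is no further result. The gamma to beta ratio was 6.51 to 10.8 with ibudilast and 11.0 to 15.3 untreated, again without overlap. The alpha to beta ratio, 2.02 ± 0.272 with ibudilast and 1.65 ± 0.127 untreated, overlapped. No p is given for these sums and ratios, which are descriptions of arrays whose single genes were tested.

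**Figure D2:**
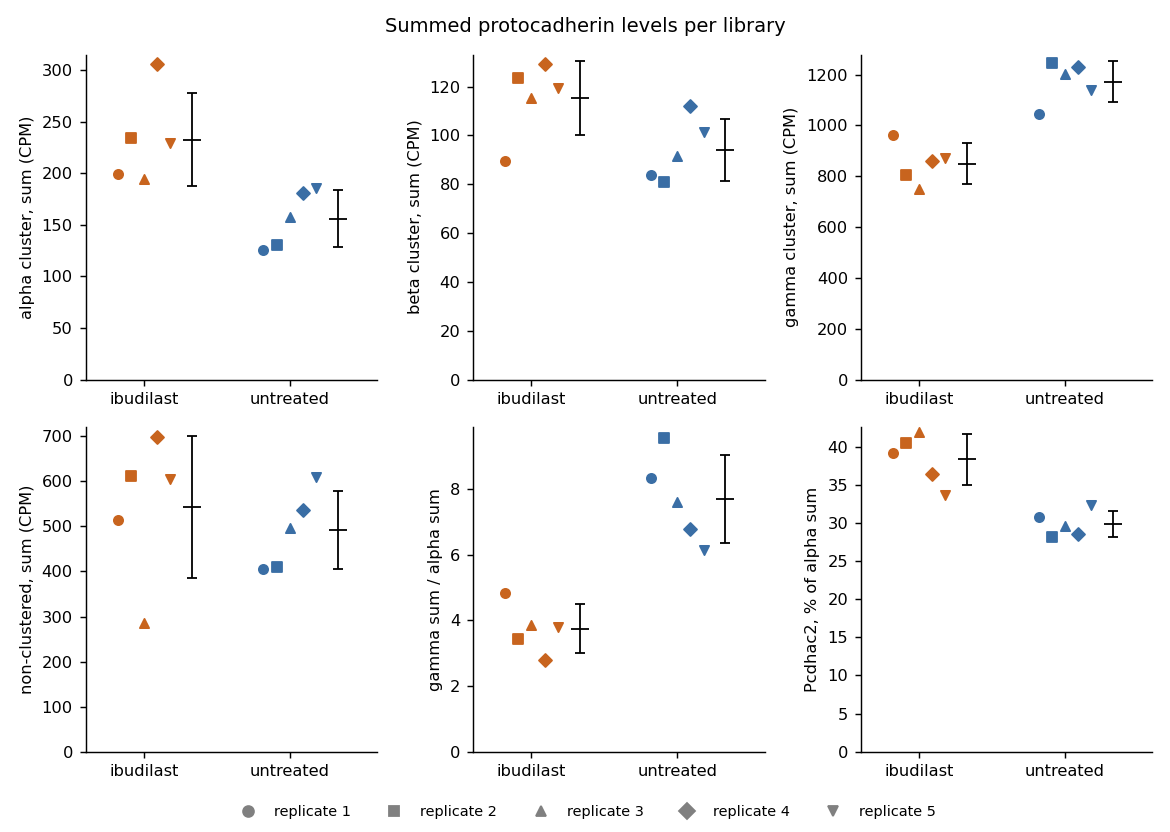
Summed levels (CPM) of the alpha, beta, gamma and non-clustered protocadherins, the gamma to alpha ratio, and the percent of the alpha sum that is Pcdhac2, per library, ibudilast left and untreated right, with mean and SD (n = 5 each). The gamma sums of 749 to 963 CPM with ibudilast lie below the 1047 to 1244 CPM of untreated libraries, and the gamma to alpha ratios of 2.81 to 4.84 below 6.14 to 9.57. The ratios separate because the gamma and alpha sums do, in opposite directions.

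In the gamma array the genes are divided by sequence into A, B and C types. Called lower were 4 of 10 A-type members, 2 of 2 B-type members and the C-type member Pcdhgc3. Pcdhgb8, a B-type gene, had 61.1, 52.4, 39.3, 60.2 and 64.5 CPM in ibudilast libraries 1 to 5, against 90.2, 89.8, 109, 100 and 85.0 CPM in untreated libraries 1 to 5. No ibudilast library reached the lowest untreated one, and ibudilast 3 was lowest. Its log2 fold change was -0.77 ± 0.13 (SE, edgeR adjusted p = 0.00176). Pcdhgb8 was called lower in each of the 25 alternative analyses, the only protocadherin of the 21 followed through them of which that was so.

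Pcdhgb7, the other B-type member, had 44.1, 45.5, 54.2, 60.8 and 54.0 CPM with ibudilast, against 63.2, 66.0, 69.5, 87.1 and 70.2 CPM untreated. The groups did not overlap, and the log2 fold change was -0.46 ± 0.12 (edgeR adjusted p = 0.0108). Pcdhgc3, which in mice promotes the branching of cortical dendrites, was the most counted protocadherin. It had 452, 367, 430, 334 and 367 CPM with ibudilast, against 505, 662, 533, 515 and 512 CPM untreated. The highest ibudilast library, 1, lay below the lowest untreated library, also 1, while untreated 2 stood well above the other untreated libraries. The log2 fold change was -0.48 ± 0.12 (edgeR adjusted p = 0.00822). Pcdhgc3 made up 38.9% to 57.4% of the gamma sum with ibudilast and 41.8% to 53.2% untreated. The rest of the gamma sum without it was 319 to 524 CPM with ibudilast and 542 to 716 CPM untreated, so the lower sum was seen with and without this gene.

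Among A-type genes, Pcdhga5 had 14.2, 8.55, 12.1, 14.0 and 14.2 CPM with ibudilast, against 17.9, 17.8, 30.2, 30.1 and 31.9 CPM untreated. Untreated 1 and 2 were close to the ibudilast range, and untreated 3, 4 and 5 were well above it. The log2 fold change, -1.02 ± 0.21, was the lowest of the clustered members (edgeR adjusted p = 0.0043). Pcdhga1, at the start of the gamma array, had 7.83, 6.41, 6.02, 4.46 and 6.44 CPM with ibudilast, against 16.6, 9.02, 7.53, 16.8 and 11.1 CPM untreated. Untreated 3 lay inside the ibudilast range, and the log2 fold change was -0.97 ± 0.25 (edgeR adjusted p = 0.0114). Pcdhga8 and Pcdhga11 were also called lower, with log2 fold changes of -0.69 and -0.68 (edgeR adjusted p = 0.0387 and 0.0392). The 6 gamma members not called had log2 fold changes of -0.37 to 0.06. Of these only Pcdhga10 was above 0, at 32.4 ± 7.25 CPM with ibudilast and 31.3 ± 4.38 CPM untreated.

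The gamma calls were fewer without certain libraries. With ibudilast 3, ibudilast 5 and untreated 1 left out, 4 gamma members were called lower at a median of -0.54, and without ibudilast 2 and 4, 3 were called at a median of -0.49. With a neocortical marker score as a covariate 3 were called lower with a median of -0.64, and with a hippocampal marker score 1 was called with a median of -0.29. Pcdhgc3, Pcdhgb7, Pcdhga5 and Pcdhga1 lost their calls with either score. With the neocortical score their log2 fold changes were -0.28, -0.40, -0.88 and -0.63. With the hippocampal score they were -0.46, -0.44, -0.80 and -0.77. The standard error of each rose with either score, for Pcdhga5 from 0.21 to 0.37 with the neocortical and 0.27 with the hippocampal score. Apart from ibudilast 3, at -0.46, ibudilast libraries had a neocortical score of 0.34 or more, and untreated libraries -0.44 or less. That score nearly follows the groups, so a call lost with it, in any gene here, does not tell score from treatment. Hippocampal scores ran from -0.98 to 0.38 in ibudilast and from -0.16 to 1.03 in untreated libraries. They overlapped but leaned with the groups, so a call lost with them does not fully tell score from treatment either.

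**Figure D3:**
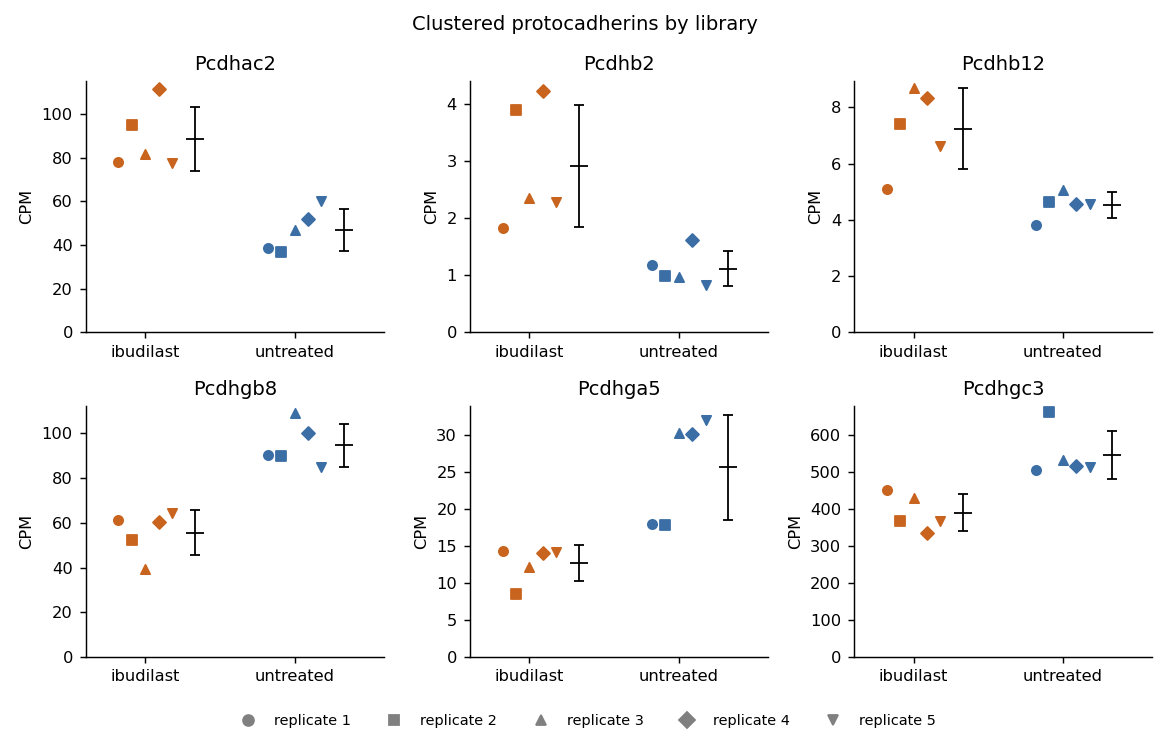
Levels (CPM) of Pcdhac2, Pcdhb2, Pcdhb12, Pcdhgb8, Pcdhga5 and Pcdhgc3 in each library, ibudilast left and untreated right, with mean and SD (n = 5 each). In each panel the groups do not overlap, higher with ibudilast in the upper row and lower in the lower row, where Pcdhgb8 has 39.3 to 64.5 CPM with ibudilast and 85.0 to 109 CPM untreated.

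In the alpha array, known in mice for its role in the spread of serotonergic axons, both C-type members were called higher and 0 of the 13 others. Pcdhac2, which in mice spaces out the endings of those axons, had 77.9, 94.8, 81.6, 111 and 77.5 CPM in ibudilast libraries 1 to 5, against 38.6, 36.6, 46.8, 51.8 and 60.1 CPM in untreated libraries 1 to 5. The groups did not overlap, with ibudilast 2 and 4 highest and untreated 1 and 2 lowest. The log2 fold change was 0.92 ± 0.15 (edgeR adjusted p = 0.00161). As a share of the alpha sum, Pcdhac2 was 33.7% to 42.0% with ibudilast and 28.1% to 32.4% untreated, without overlap. The alpha sum without Pcdhac2, 113 to 194 CPM with ibudilast and 86.8 to 129 CPM untreated, overlapped, so the separation of the alpha sums was not seen without this gene.

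Pcdhac1, the other C-type gene, had 4.05, 5.78, 2.23, 6.22 and 2.65 CPM with ibudilast, against 1.47, 1.22, 1.78, 2.82 and 2.63 CPM untreated. Ibudilast 3 and 5 lay within the untreated range, and the log2 fold change was 1.07 ± 0.35 (edgeR adjusted p = 0.033). That call was lost when untreated 1, untreated 2, untreated 3, ibudilast 2 or ibudilast 4 was left out. The 13 genes Pcdha1 to Pcdha13 had log2 fold changes of 0.01 to 1.10 and edgeR adjusted p of 0.0829 to 0.971. Each of the 15 alpha fold changes was above 0, beside 50.5% of all tested genes, but the members share constant exons and one sign over them is not 15 observations. Of these, Pcdha1 met the count rule mainly through ibudilast libraries, with 1.89 to 3.64 CPM, against 0 to 3.36 CPM untreated. Untreated 1 and 3 were listed at 0, where 3 counts would have been 0.440 and 0.411 CPM.

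With a neocortical score as covariate the alpha median was 0.06, Pcdhac2 had a log2 fold change of 0.71 ± 0.23 (edgeR adjusted p = 0.0512), and 0 alpha members were called higher and 1 lower. With the hippocampal score it was 0.72, and Pcdhac2 was called at 0.94 (edgeR adjusted p = 0.0151).

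Beta genes lack the constant exons and so the shared intracellular domain. Called higher were Pcdhb2, Pcdhb8, Pcdhb9, Pcdhb10 and Pcdhb12. Pcdhb12 had 5.09, 7.41, 8.69, 8.33 and 6.63 CPM with ibudilast, against 3.81, 4.63, 5.06, 4.57 and 4.56 CPM untreated. Ibudilast 1 lay just above the highest untreated library, and the log2 fold change was 0.68 ± 0.18 (edgeR adjusted p = 0.0125). Pcdhb10 had 6.66, 8.29, 7.80, 8.21 and 9.28 CPM with ibudilast, against 3.37, 5.12, 5.89, 5.91 and 6.63 CPM untreated. The groups touched but did not overlap, at ibudilast 1 and untreated 5, and the log2 fold change was 0.58 ± 0.19 (edgeR adjusted p = 0.0304).

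Pcdhb9, the most counted beta member, had 18.7, 33.9, 31.2, 31.0 and 27.7 CPM with ibudilast, against 18.5, 15, 18.2, 23.1 and 22.4 CPM untreated. Ibudilast 1 lay within the untreated range and the other 4 ibudilast libraries above it, with a log2 fold change of 0.55 ± 0.17 (edgeR adjusted p = 0.0266). Pcdhb8 had 4.44, 5.15, 7.24, 6.22 and 6.63 CPM with ibudilast, against 3.08, 3.90, 2.33, 3.23 and 4.97 CPM untreated. Only ibudilast 1 and untreated 5 overlapped, and the log2 fold change was 0.76 ± 0.23 (edgeR adjusted p = 0.0223). Pcdhb2 had 1.83, 3.90, 2.34, 4.22 and 2.27 CPM with ibudilast, against 1.17, 0.976, 0.958, 1.61 and 0.829 CPM untreated. It reached a count of 10 in 5 ibudilast libraries and 1 untreated library, so it entered through the group in which it is high, and its log2 fold change of 1.38 ± 0.31 (edgeR adjusted p = 0.00596) is not support for a direction of the array. The 6 beta members not called, Pcdhb3 to Pcdhb6, Pcdhb20 and Pcdhb21, had log2 fold changes of -0.12 to 0.25.

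The beta calls changed with single libraries. Of the 7 alpha and beta members called higher with all libraries, 3 were called without untreated 1 and 4 without untreated 2, ibudilast 2 or ibudilast 4, each taken singly. Without ibudilast 3, ibudilast 5 and untreated 1, 1 beta member was called and the beta median was 0.26, and without ibudilast 2 and 4, 1 was called and the median was 0.06. In both sets that member was Pcdhb2, which entered through the group in which it is high. No other beta member was called in either set. With either marker score as a covariate 0 beta members were called. The beta median was then 0.27 with the neocortical and 0.45 with the hippocampal score. The standard errors of the beta genes called with all libraries rose with either score.

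The non-clustered members showed the largest fold changes in both directions. Pcdh7, which acts in axon growth in frog and mouse and whose intracellular part binds the phosphatase PP1, had 63.2, 104, 41.6, 116 and 97.0 CPM in ibudilast libraries 1 to 5, against 14.5, 19.3, 29.0, 19.4 and 35.8 CPM in untreated libraries 1 to 5. The groups did not overlap, with ibudilast 3 the lowest of its group. The log2 fold change was 1.84 ± 0.31 (edgeR adjusted p = 0.00167). Pcdh9, known as a cell adhesion gene of cortical neurons, had 166, 267, 139, 299 and 252 CPM with ibudilast, against 109, 88.7, 88.0, 129 and 119 CPM untreated. The groups did not overlap and the log2 fold change was 1.08 ± 0.21 (edgeR adjusted p = 0.00324).

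Pcdh11x, an X-linked gene, had 4.83, 17.0, 4.35, 19.2 and 13.3 CPM with ibudilast, against 0.587, 0.854, 3.15, 0.806 and 4.42 CPM untreated. Ibudilast 1 and 3 were near untreated 5, and the others were far above. It reached a count of 10 in 5 ibudilast and 2 untreated libraries, so it too entered mainly through the group in which it is high. The log2 fold change was 2.58 ± 0.61 (edgeR adjusted p = 0.00756). For Pcdh7, Pcdh9 and Pcdh11x the ibudilast libraries stood in the same order, 3, 1, 5, 2 and 4 from low to high, and the neocortical score ran in that order too, with -0.46 in ibudilast 3, 0.34 in 1, 0.68 in 5, 1.11 in 2 and the highest score in 4. Untreated libraries scored -0.91 to -0.44. With that score as a covariate the log2 fold change was 0.74 for Pcdh7, 0.38 for Pcdh9 and 0.73 for Pcdh11x (edgeR adjusted p = 0.109, 0.288 and 0.451). In ibudilast 3, the neocortical score lay in the untreated range and the cerebellar markers were high. There Pcdh7, at 41.6 CPM, and Pcdh9, at 139 CPM, were above the highest untreated library, at 35.8 and 129 CPM. Pcdh11x, at 4.35 CPM, was below untreated 5, at 4.42 CPM. The part of the neocortical or the cerebellar markers in that library was not tested. With the hippocampal score as a covariate Pcdh7 and Pcdh9 kept their calls, with log2 fold changes of 1.94 and 1.17 (edgeR adjusted p = 0.0136 and 0.0189).

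Pcdh8, also named arcadlin, is induced by neuronal activity in rat hippocampus and takes part in the uptake of N-cadherin at synapses. It had 112, 62.8, 25.4, 65.0 and 82.3 CPM with ibudilast, against 111, 150, 136, 161 and 169 CPM untreated. Only ibudilast 1 and untreated 1 overlapped, and ibudilast 3 was lowest. The log2 fold change was -1.07 ± 0.30 (edgeR adjusted p = 0.0164), and the call was lost without ibudilast 2 and 4 and with either marker score as a covariate. It was -1.6 ± 0.56 with the neocortical and -0.56 ± 0.24 with the hippocampal score. The ratio of Pcdh7 to Pcdh8 within a library was 0.565 to 1.79 with ibudilast and 0.120 to 0.213 untreated, without overlap. It sets a member called higher over the member called lower, so its separation follows from that choice and is no further result.

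The other 5 non-clustered members were not called with all libraries and no covariate. Pcdh20 had 24.0 to 110 CPM with ibudilast and 63.8 to 134 CPM untreated, with a log2 fold change of -0.71 ± 0.33 (edgeR adjusted p = 0.107). Pcdh19, an X-linked gene mutated in a human epilepsy, had 15.7 to 40.6 CPM with ibudilast and 20.7 to 63.4 CPM untreated, with a log2 fold change of -0.61 ± 0.30 (edgeR adjusted p = 0.119). Both ranges overlapped widely. Pcdh20 was called lower with the neocortical score as a covariate, at -1.96, and without ibudilast 4, at -0.94 (edgeR adjusted p = 0.0181 and 0.0477). Pcdh19 was called lower without untreated 1, at -0.78, and without ibudilast 1, at -0.82 (edgeR adjusted p = 0.0485 and 0.0447), and its log2 fold change over single libraries left out was -0.82 to -0.37. Pcdh17, which acts at presynaptic sites in mouse corticobasal circuits, had 25.1 to 51.4 CPM with ibudilast and 24.8 to 80.3 CPM untreated, with a log2 fold change of -0.14 ± 0.30 (edgeR adjusted p = 0.735). Pcdh18, a partner of the adaptor Dab1 in mice, had 3.90 to 8.24 CPM with ibudilast and 3.78 to 9.44 CPM untreated (log2 fold change -0.24 ± 0.26, edgeR adjusted p = 0.482). Pcdh15, a component of the tip links of hair cells, had 4.57 to 8.68 CPM with ibudilast and 2.76 to 5.98 CPM untreated (log2 fold change 0.57 ± 0.25, edgeR adjusted p = 0.0889). Without ibudilast 3, Pcdh15 was called higher at 0.68 (edgeR adjusted p = 0.0469). Pcdh12 was the 1 row outside the count rule, with counts of 2 to 16 and 1 library at 10 or more.

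**Figure D4:**
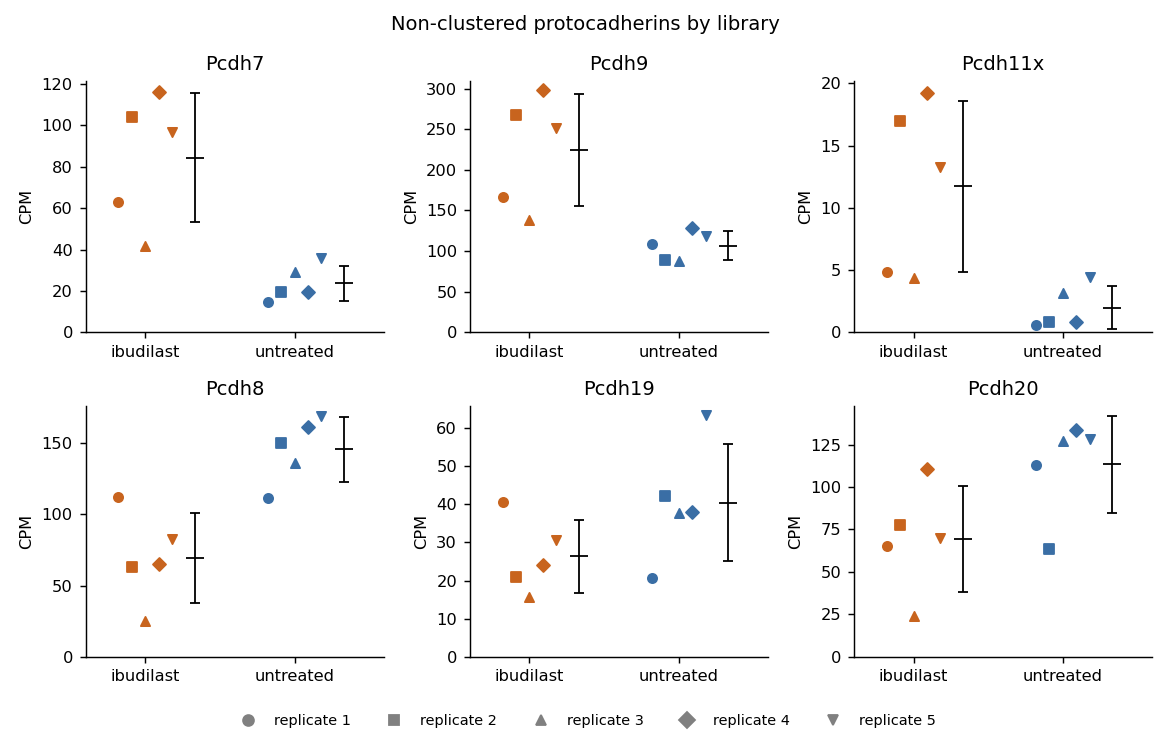
Levels (CPM) of Pcdh7, Pcdh9, Pcdh11x, Pcdh8, Pcdh19 and Pcdh20 in each library, ibudilast left and untreated right, with mean and SD (n = 5 each). Pcdh7 and Pcdh9 show no overlap, with 41.6 to 116 CPM for Pcdh7 with ibudilast and 14.5 to 35.8 CPM untreated, and ibudilast 3 is the lowest ibudilast library in each panel.

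Across the whole comparison fold changes ran with gene span, the length from first to last exon, taken here from RefSeq records of build GRCr8 and found for 98.1% of tested genes. In deciles of span, the median log2 fold change was -0.31 over the shortest genes and 0.38 over the longest. Beta members span 2340 to 13324 bases. Over the 3283 tested genes in that range the median log2 fold change was -0.18, with 7.68% called higher and 28% lower, while 45.5% of beta members were called higher and 0 lower, or 4 of 10 without Pcdhb2. Gamma members span 34851 to 180457 bases, counted over the array to the constant exons. Over the 3617 tested genes in that range the median was 0.20, with 31.5% called higher and 10.5% lower, while 0 gamma members were called higher and 53.8% lower. Beta and gamma thus each stood on the side opposite to other genes of like span.

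Among non-clustered members, Pcdh7, Pcdh9 and Pcdh11x span 430160, 898173 and 695481 bases, and of 414 tested genes over 300000 bases 40.6% were called higher. Pcdh8 and Pcdh20 span 4570 and 6257 bases, and of genes under 10000 bases 32.4% were called lower. With the span trend removed in each library, 5 beta members were called higher, Pcdhb2 among them, at a median of 0.51, and 10 gamma members lower, at a median of -0.69. Removing the trend by itself moves genes of beta span up and genes of gamma span down. The larger beta and gamma medians are thus no further result. Pcdh7, Pcdh9 and Pcdh11x were still called, with log2 fold changes of 1.41, 0.52 and 2.09 (edgeR adjusted p = 0.00246, 0.0243 and 0.0126). Pcdh19 was then called lower at -0.85 (edgeR adjusted p = 0.0386). The alpha median turned to -0.05, but alpha genes share 1 record for the whole locus, so their spans are approximate.

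**Figure D5:**
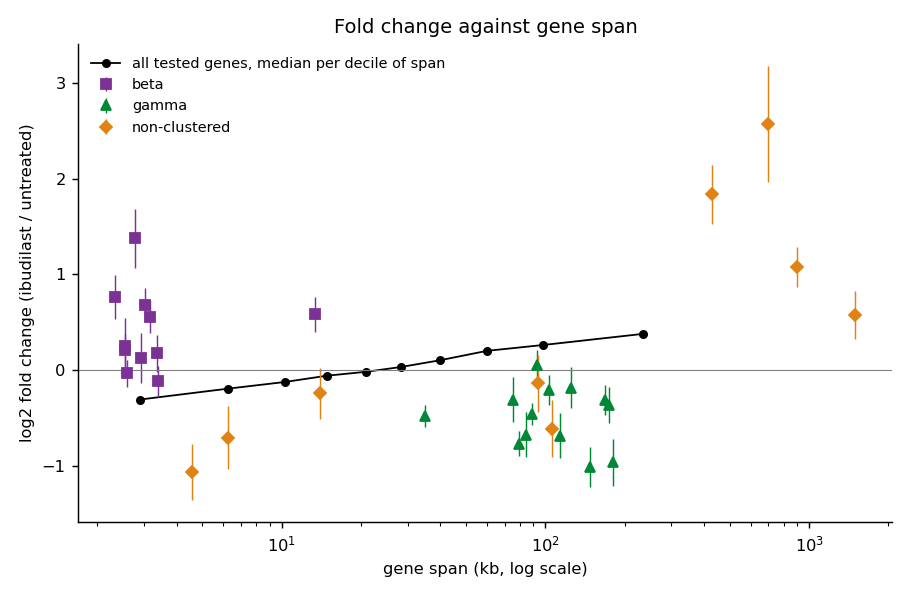
Log2 fold change (ibudilast over untreated, bars of 1 standard error) of beta, gamma and non-clustered protocadherins against gene span in kilobases on a log axis, with the median of all tested genes in each decile of span as a line. The line climbs with span, at -0.31 for the shortest decile and 0.38 for the longest, while beta members lie above it and gamma members below it.

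Genes that act on or with protocadherins were read as lists, beside the 20% of all tested genes called higher and the 18.5% called lower. Of 15 tested regulators of the arrays, 3 were called higher and 0 lower, and the median log2 fold change was 0.17. That is the background share of higher calls, so it is no result about these regulators as a list. Among the called genes were the DNA methyltransferase gene Dnmt3a at 1.14 ± 0.19 and the maintenance methyltransferase gene Dnmt1 at 0.55 ± 0.13 (edgeR adjusted p = 0.00171 and 0.00842). Dnmt3a had 42.9 ± 13.9 CPM with ibudilast and 19.5 ± 1.62 CPM untreated. Ctcf, whose protein shapes the array loops, had a log2 fold change of 0.20 (edgeR adjusted p = 0.109), and none of the tested cohesin genes Rad21, Smc1a, Smc3, Stag1 and Stag2 was called.

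The proteases that cleave protocadherins, the sheddase Adam10 and gamma-secretase, had 2 of 7 genes called in each direction and a median log2 fold change of 0.08. Adam10 was higher, at 0.40 ± 0.10, and the subunit genes Psenen and Aph1b were lower, at -0.75 ± 0.13 and -0.36 ± 0.09 (edgeR adjusted p = 0.0108, 0.00192 and 0.0101). The calls of Adam10 and Aph1b were lost with either marker score as a covariate, and that of Psenen with the neocortical score. Adam10 was then at 0.31 and 0.33 and Aph1b at -0.19 and -0.31, neocortical before hippocampal score, and Psenen at -0.61. With the span trend removed Adam10 was at 0.12 and not called (edgeR adjusted p = 0.27). Adam10 and Aph1b were also not called in either set of libraries left out. Of 22 tested intracellular partners, 6 were higher and 4 lower, near the background shares, with a median of -0.03. In the WAVE complex, the actin regulator that binds several protocadherins, Wasf2 was higher at 0.77 ± 0.13, and Abi1 and Cyfip1 were lower at -0.77 ± 0.12 and -0.70 ± 0.13 (edgeR adjusted p = 0.00195, 0.0013 and 0.00249). Taok2, the kinase that links Pcdh8 to the uptake of N-cadherin in rat neurons, was higher at 0.45 ± 0.08 (edgeR adjusted p = 0.0023).

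Of 21 other tested cadherin superfamily genes, 11 were called higher and 1 lower, and the median log2 fold change was 0.73. Cdh20, Cdh7 and Cdh6, type II cadherins, were higher at 1.40 ± 0.15, 2.52 ± 0.39 and 2.82 ± 0.48, and the giant cadherin gene Fat3 at 1.37 ± 0.21 (edgeR adjusted p = 0.000664, 0.00125, 0.00186 and 0.00127). The 1 gene called lower, Cdh9, was named after its value of -1.58 was seen (edgeR adjusted p = 0.00749). In mice Cdh9 acts at the synapses of dentate granule cells on CA3 cells, and 6 of 12 hippocampal markers were lower too, whose part in its level was not tested. Of 10 synaptic adhesion genes, 5 were higher and 0 lower, with a median of 0.43, among them Dscam, another gene of dendrite self-avoidance in fly and mouse, at 1.50 ± 0.24, the neurexin gene Nrxn3 at 1.15 ± 0.19, and the neuroligin gene Nlgn2 at 0.77 ± 0.14 (edgeR adjusted p = 0.00147, 0.00152 and 0.00285). Of 6 catenin genes, which anchor classical cadherins but not protocadherins, Ctnnd1 and Jup were higher at 0.46 ± 0.11 and 0.68 ± 0.24 (edgeR adjusted p = 0.00822 and 0.0435). The call of Jup held in 12 of 25 alternatives, and its log2 fold change was 0.35 without ibudilast 3 and 0.26 with the hippocampal score (edgeR adjusted p = 0.0105 and 0.51). With the neocortical score as a covariate Cdh6, Fat3, Dscam, Nlgn2, Ctnnd1 and Cyfip1 were no longer called, at log2 fold changes of 1.12, 0.81, 0.61, 0.65, 0.36 and -0.65. With the hippocampal score Dnmt1 and Ctnnd1 were not, at 0.44 and 0.39. With the span trend removed Cdh20, Cdh7, Cdh6 and Fat3 kept their calls, at 1.01, 2.23, 2.52 and 0.89. Dscam, Nrxn3, Nlgn2 and Ctnnd1 kept theirs too, at 1.02, 0.57, 0.81 and 0.30, and Jup, at 0.62, did not.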

How the data were processed

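Per the labels' protocols, RNA from each hippocampus was turned into stranded mRNA libraries. The authors deposited an estimated count per gene and library, with bcl2fastq 2.17, Bowtie2 2.1.0, RSEM 1.2.15 and build rn6 named in the submitters' processing notes. The authors also deposited a signal table of TMM-scaled CPM, with edgeR named in those notes. The sources used here do not state the annotation or whether counting used the strand, so values of antisense and overlapping genes are uncertain. CPM recomputed from the counts matched 99.8% of the deposited protocadherin values within 0.1%.

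The treatment label set each library's group, and its title the replicate number. Estimated counts were rounded, and 10.6% to 11.3% per library had not been whole. The test was edgeR's quasi-likelihood test (edgeR 4.0.16, R 4.3.3) after filterByExpr and TMM scaling, with Benjamini-Hochberg adjustment over all 11682 tested genes and a threshold of 0.05. Standard errors follow from the test statistic. The test was checked on simulated counts with known changes. Those counts held no span trend, no tissue differences between libraries and no shared reads, so that check does not cover these features of the data. Sums and ratios were made in R, promoter searches in Python 3.11.15 with pandas 2.3.3, and figures with matplotlib 3.10.9. Marker scores are mean z-scores of log2 CPM over the markers of a list.

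The members and all gene lists were chosen with earlier results of these data known. Values in every library are given for up to 5 called genes of smallest p in each array, the most counted gene, the C-type genes and the called non-clustered members. In other lists up to 4 called genes of smallest p are named, and some genes that this takes are not reported here. Alternatives were other scaling factors (DESeq2 size factors, upper quartile, totals only), no filter or a count filter, unrounded counts, DESeq2 1.42.0, limma 3.58.1 (voom, and trend on the deposited CPM with a pseudocount of 1), the replicate number as a block, the 2 marker scores as covariates, removal of the span trend by a loess offset, each library left out, and 2 sets of libraries left out. No library was removed or imputed otherwise.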

Additional observations from a re-analysis of the deposited data

Results flagged for a closer look

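In each group of 5 libraries, the highest and lowest value of every protocadherin, array sum and ratio was set against the rest by Dixon's test, 122 groups in all. It marked 5 of them, where chance marks about 1 in 20. Pcdh17 in ibudilast 3 was 25.07 CPM, below 46.31 to 51.4 CPM in the other ibudilast libraries. Pcdhb3 in untreated 4 was 16.13 CPM, above 5.526 to 7.391 CPM in the other untreated libraries. Pcdhga7 in untreated 1 was 46.93 CPM, below 64.88 to 69.12 CPM in the others. Pcdhgc3 in untreated 2 was 662.1 CPM, above 504.9 to 533 CPM in the others, and its call held without that library. The gamma to beta ratio in ibudilast 1 was 10.75, above 6.506 to 7.308 in the other ibudilast libraries.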

How the results depend on the processing

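Scaling, filters, rounding, DESeq2 and limma left the counts of calls within 1.5 times and moved the median of all genes by under 0.1. With the neocortical score as a covariate 2286 genes were called. Of the protocadherins 0 were higher and 5 lower, with 0 alpha and beta members higher and 3 gamma members lower. That score nearly follows the groups, so these lost calls do not tell score from treatment. With the hippocampal score 2515 genes were called, with 3 protocadherins higher and 1 lower, 1 alpha or beta member higher and 1 gamma member lower. This score overlapped between the groups but leaned with them too. Without ibudilast 2 and 4, 2554 genes were called, with 4 protocadherins higher and 3 lower, 2 alpha and beta members higher and 3 gamma members lower. Without ibudilast 3, ibudilast 5 and untreated 1, 5 protocadherins were lower, 4 alpha and beta members higher and 4 gamma members lower. Leaving out each library in turn gave 3458 to 4751 genes, 6 to 13 protocadherins higher (6 without untreated 1) and 6 to 9 lower, 3 to 9 alpha and beta members higher and 5 to 7 gamma members lower. Fold changes reversed for Pcdh15 with the span trend removed (-0.064) and for Pcdh17 with the hippocampal score (0.19), without untreated 5 (0.14) and without ibudilast 3 (0.016), in a range of -0.31 to 0.14 over single libraries left out. Pcdh17 was called in 0 of 25 alternatives, and Pcdh15 in 1, without ibudilast 3. The cause of these changes was not tested. With the replicate number as a block 3535 genes, 8 protocadherins higher and 7 lower, 5 alpha and beta members higher and 6 gamma members lower were called. Deviations of libraries with the same number correlated at -0.14 to 0.02 and no library matched its own number best, so no pairing by number was seen. With 5 libraries per group this cannot exclude one. Depth limits the members with few counts, and the standard error of the log2 fold change was 0.71 for Pcdha1 and 0.61 for Pcdh11x.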
